A study of Mus musculus with 15 samples.

Results

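The genes described here encode proteins of elastic fibres and of the microfibrils on which they form. They were taken by symbol as Emilin1, Emilin2, Mfap2, Mfap4, Mfap5, Fbln2, Fbln5, Fbn1, Eln and Lox, and every probe set annotated to 1 of these symbols was kept. Of 45101 probe sets on the array, 17 belonged, and they stood for 9 of the 10 genes. Fbn1 was not analysed here. Expression was measured on 15 Affymetrix arrays of NIH3T3 cells (an established mouse fibroblast line), all transduced with the retroviral vector pBabe-puro. In 2 groups of 2 arrays the vector was empty, without and with 4-hydroxytamoxifen (4-OHT), a ligand of the oestrogen receptor. A further 2 groups of 2 arrays carried RUNX1-ER, a RUNX1 construct that 4-OHT switches on, uninduced or induced with 4-OHT, and the other lines expressed mouse Runx1, Runx2 or Runx3 constitutively (2 arrays each) or human RUNX1 (1 array). All cultures were confluent after 7 days and were given ethanol at 0.2%, alone or with 4-OHT at 0.1 mM as the labels state it, for 24 h. The labels do not say which of these the constitutive lines received, nor whether a line was a clone or a pool. Nothing says that the arrays numbered as biological replicates came from separate transductions, so the p-values reflect the spread between these arrays alone, and that spread may be technical.

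Elastic fibres form when tropoelastin, the product of Eln, is laid on bundles of fibrillin microfibrils and crosslinked. Microfibril-associated glycoproteins (Mfap2 and Mfap5) bind fibrillin, fibulin 5 (Fbln5) brings tropoelastin to the microfibril, and lysyl oxidase (Lox), a copper enzyme, makes the crosslinks of elastin and collagen. Emilins are large glycoproteins at the interface of elastin and microfibril, and fibroblasts secrete nearly all of these components. Runx proteins bind DNA at a core motif that is usually written TGTGGT, with TGCGGT as its common variant.

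Promoter windows from RefSeq (GRCm38.p6, 250 bases before to 50 after a transcript start) were matched by symbol for 5 of the 9 genes, in 8 windows. No window is shown for Mfap4, Mfap5, Eln or Lox. The 3 windows printed are those of Emilin1, which rose, and of Emilin2 and Fbln5, which fell, each 5′ to 3′ on the strand of the gene, with a match to either motif on either strand in capitals. The motifs differ at 1 base and cannot match the same place on the same strand. For Emilin2 and Fbln5 the window of the outermost start is shown.
Emilin1, chr5:30913536-30913835, plus strand: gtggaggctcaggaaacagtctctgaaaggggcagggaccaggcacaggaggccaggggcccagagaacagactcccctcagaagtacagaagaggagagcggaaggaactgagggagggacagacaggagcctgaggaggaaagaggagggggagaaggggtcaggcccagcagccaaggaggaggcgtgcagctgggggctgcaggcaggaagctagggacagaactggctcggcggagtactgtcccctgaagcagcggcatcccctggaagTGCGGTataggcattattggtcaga
Emilin2, chr17:71311507-71311806, minus strand: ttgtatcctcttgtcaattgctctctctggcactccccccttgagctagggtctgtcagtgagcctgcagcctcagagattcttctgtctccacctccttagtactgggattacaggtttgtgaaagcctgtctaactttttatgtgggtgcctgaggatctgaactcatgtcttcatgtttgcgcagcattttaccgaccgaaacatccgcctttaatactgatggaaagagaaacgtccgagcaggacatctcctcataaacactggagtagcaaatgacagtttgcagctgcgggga
Fbln5, chr12:101819070-101819369, minus strand: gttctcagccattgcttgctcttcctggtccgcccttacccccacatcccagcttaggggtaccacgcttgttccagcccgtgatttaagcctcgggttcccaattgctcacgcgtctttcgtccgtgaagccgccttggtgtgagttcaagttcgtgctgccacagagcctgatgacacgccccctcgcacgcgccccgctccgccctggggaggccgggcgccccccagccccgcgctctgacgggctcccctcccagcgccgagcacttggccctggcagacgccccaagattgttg
Among the 8 windows, 2 held a match, both to TGCGGT. That of Emilin1 began 25 bases after the transcript start, on the strand of the gene, and that of Mfap2 took up the first bases of its outer window on the opposite strand. Over all 32851 windows of this length, 16.8% held TGTGGT, 6.45% held TGCGGT and 22.4% held either. A match is a run of letters in this window and does not show that a factor bound there.

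The values are log2 expression after normalization by the authors with the Robust Multichip Average (RMA) method, which understates the folds of dim probe sets. Array medians lay between 3.69 and 3.75 log2 units, and replicate arrays differed with an SD over probe sets of 0.162 to 0.220. The brightest Runx1 probe set read 9.21 ± 0.14 (SD, n = 2) in the Runx1 line against 4.65 ± 0.13 in vector cells, and Esr1, part of the RUNX1-ER construct, read 6.51 ± 0.72 in uninduced RUNX1-ER cells against 4.06 ± 0.28. The Runx3 probe set was not higher in the line labelled Runx3 (4.21 ± 0.35 against 4.45 ± 0.13), and whether it lies in the transduced sequence is not known. No probe set was named Runx2. On the human RUNX1 array the Runx1 probe set read 4.69, near the vector mean, and whether it detects the human sequence is not known. The Runx2, Runx3 and human RUNX1 lines are therefore taken from their labels throughout. Each gene is described first by its brightest probe set, that with the highest mean over all arrays, and a gene or probe set was called when its limma p, adjusted by the Benjamini-Hochberg method over 45037 probe sets, was under 0.05. Standard errors are on the log2 scale. Lines are compared with vector cells without 4-OHT unless stated, so comparisons of the lines with vector share these 2 control arrays.

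The emilins moved apart. Emilin1, an elastic fibre glycoprotein known to restrain TGF-β processing, lies on chromosome 5 from 30913387 to 30921279 (GRCm38.p6). It read 6.08 and 6.19 in vector cells, 7.76 and 7.84 in the Runx1 line, 8.21 and 8.34 in the Runx2 line and 9.25 and 9.41 in the Runx3 line. No array of any line overlapped the vector arrays, and the level stepped up from Runx1 to Runx2 to Runx3. Emilin1 rose 3.17-fold in the Runx1 line (log2 difference 1.66, SE 0.15, limma adjusted p = 6.81e-05), 4.40-fold in the Runx2 line (2.14, adjusted p = 5.11e-06) and 9.14-fold in the Runx3 line (3.19, adjusted p = 3.31e-08). The other Emilin1 probe set rose less (0.74, 1.14 and 2.07 for Runx1, Runx2 and Runx3) and passed in each line (limma adjusted p = 0.0460, 0.00174 and 2.66e-06). 

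Emilin2, a relative of Emilin1 that shares its domain plan, lies on chromosome 17 from 71252172 to 71311556 and had 1 probe set. It read 7.08 and 7.10 in vector cells, 6.40 and 6.57 in the Runx1 line, 6.14 and 6.37 in the Runx2 line and 5.75 and 6.02 in the Runx3 line. Every array of the lines lay below both vector arrays. Emilin2 fell by 0.83 log2 units with Runx2 (SE 0.14, limma adjusted p = 0.00821) and by 1.20 with Runx3 (adjusted p = 0.000135), while in the Runx1 line its change of −0.60 did not pass (adjusted p = 0.0858). The call in the Runx2 line was lost without vector replicate 1 (adjusted p = 0.0800), vector replicate 2 (0.0865) or Runx2 replicate 1 (0.106), and when only these 2 groups were fitted (0.0591). In the Runx1 line the gene passed with a trended, robust prior (adjusted p = 0.0208) and among probe sets with a mean above 5 (adjusted p = 0.0400).

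Of the microfibril-associated genes, Mfap5 rose in every line. It encodes MAGP-2, a small glycoprotein that binds fibrillins, and lies on chromosome 6 from 122513584 to 122529290. Its brightest probe set read 6.10 and 6.12 in vector cells, 7.72 and 7.64 in the Runx1 line, 7.49 and 7.75 in the Runx2 line and 8.48 and 8.31 in the Runx3 line. The Runx1 and Runx2 arrays overlapped each other and lay above vector and below Runx3. Mfap5 rose 2.97-fold in the Runx1 line (log2 difference 1.57, SE 0.11, limma adjusted p = 5.09e-06), 2.85-fold in the Runx2 line (1.51, adjusted p = 5.11e-06) and 4.89-fold in the Runx3 line (2.29, adjusted p = 2.74e-08). Its dimmer probe set, at 4.43 log2 units in vector cells, rose in the Runx3 line by 0.93 (limma adjusted p = 0.000126) and changed by 0.35 and 0.12 in the Runx1 and Runx2 lines (adjusted p = 0.289 and 0.809), where it did not pass. Its interval in the Runx1 line, 0.11 to 0.58, lay above 0, and that in the Runx2 line was −0.11 to 0.36.

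Mfap2, which encodes MAGP-1, the closest relative of MAGP-2, did not follow Mfap5. It lies on chromosome 4 from 141010424 to 141015976, and its brightest probe set ran from 5.06 to 5.70 over all 15 arrays, with 5.43 and 5.40 in vector cells and 5.41 and 5.49 in the Runx3 line. Its change in the Runx3 line was 0.04 (95% interval −0.23 to 0.31), so that a rise of the size of Mfap5 lies outside the interval. In the Runx1 and Runx2 lines it changed by −0.20 and −0.08, and neither probe set passed in any of the 11 tested comparisons. Mfap4, which encodes a fibrinogen-related glycoprotein of elastic fibres, lies on chromosome 11 from 61485431 to 61488708 and ran from 3.22 to 3.58, below the median of every array. A change of Mfap4 could hardly be seen at that level, and it passed in none of the 11 comparisons.

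**Figure D1:**
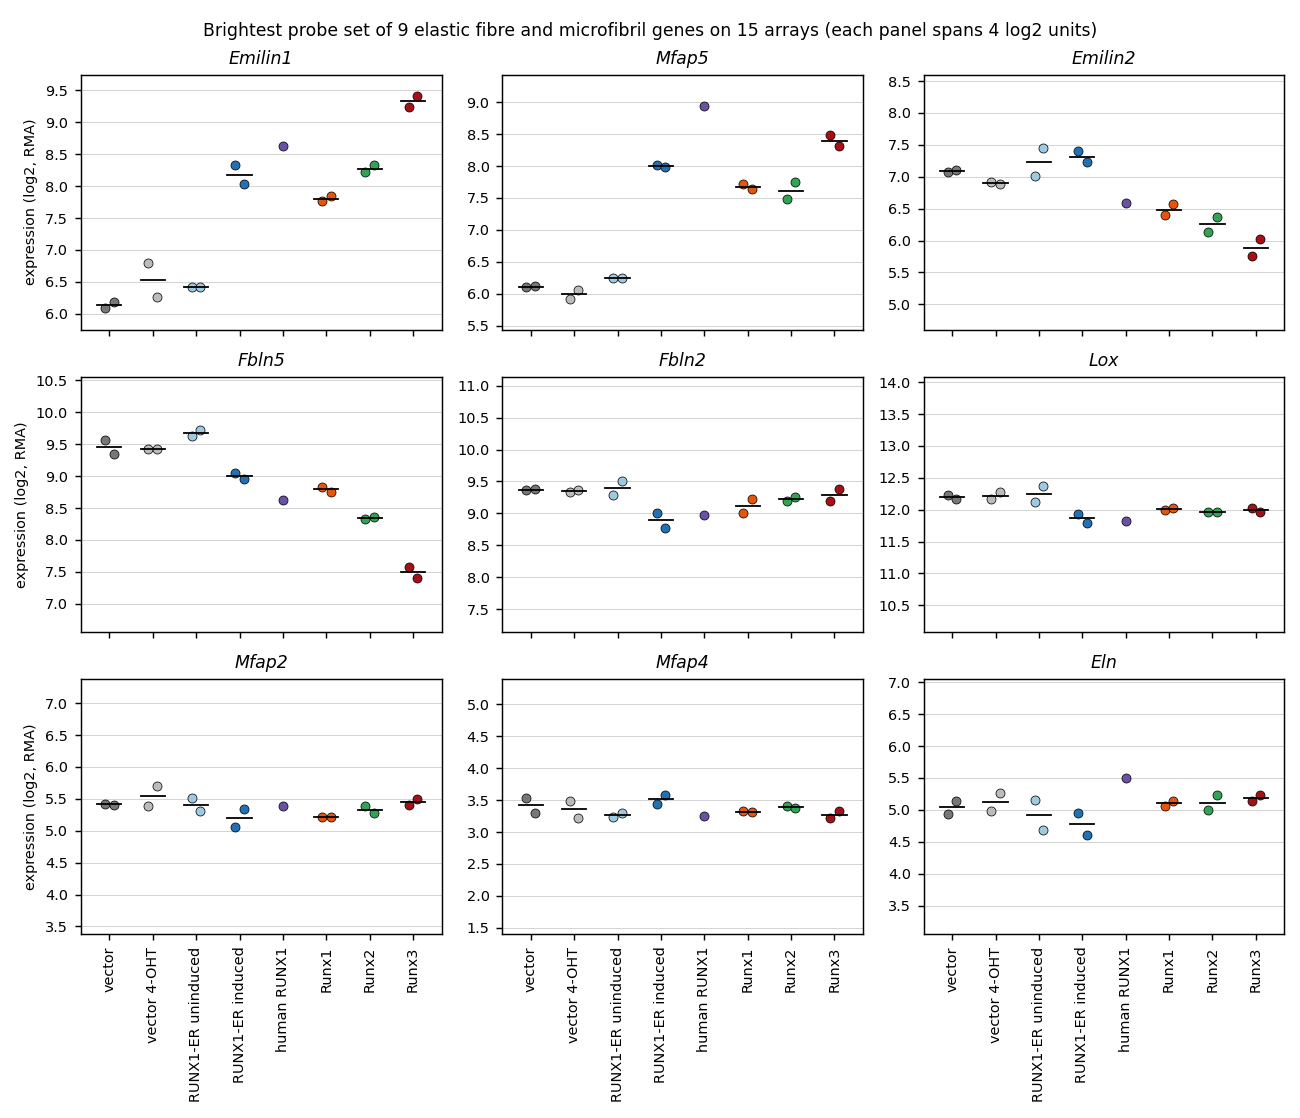
Expression (log2, RMA) of the brightest probe set of each of the 9 genes by group, with 1 point per array and a line at the mean of 2 arrays; each panel spans 4 log2 units around its own centre. Emilin1 and Mfap5 stand higher in every Runx line and after RUNX1-ER induction, Fbln5 stands lower in them, Emilin2 stands lower in the constitutive lines alone, and the other 5 genes vary less.

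The fibulins, which link microfibrils to other matrix proteins, also differed from each other. Fbln5 lies on chromosome 12 from 101746565 to 101819119. It read 9.57 and 9.35 in vector cells, 8.83 and 8.76 in the Runx1 line, 8.33 and 8.35 in the Runx2 line and 7.58 and 7.40 in the Runx3 line. The 4 pairs of arrays did not overlap, and the order was the reverse of that of Emilin1. Fbln5 fell by 0.67 log2 units with Runx1 (SE 0.10, limma adjusted p = 0.00444), by 1.12 with Runx2 (adjusted p = 4.87e-05) and by 1.98 with Runx3 (adjusted p = 6.96e-08), where the vector level was 3.93-fold that of the line. The call in the Runx1 line was lost without vector replicate 1 (limma adjusted p = 0.0902), without Runx1 replicate 2 (0.0663) and when only these 2 groups were fitted (0.0782). A second Fbln5 probe set ran from 3.35 to 3.68 on all arrays, below the median of each, and did not pass in any comparison. 

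Fbln2, a fibulin of elastic fibres and basement membranes, lies on chromosome 6 from 91212460 to 91272540. It read 9.37 and 9.38 in vector cells and between 9.01 and 9.39 on the 6 arrays of the mouse Runx lines. Its changes were −0.26, −0.14 and −0.08 in the Runx1, Runx2 and Runx3 lines, and none passed (limma adjusted p = 0.654, 0.785 and 0.866). For the Runx3 line the 95% interval of −0.33 to 0.17 leaves out a fall as large as that of Fbln5. 

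Elastin itself, on chromosome 5 from 134702595 to 134747368, did not pass in any comparison. The brightest Eln probe set read 4.94 and 5.14 in vector cells, 5.06 and 5.14 in the Runx1 line, 4.99 and 5.23 in the Runx2 line and 5.13 and 5.23 in the Runx3 line, so the groups overlapped. Its changes were 0.06, 0.07 and 0.14, with a 95% interval of −0.21 to 0.49 in the Runx3 line. Its other probe set spread by up to 0.62 log2 units between the arrays of the Runx1 line (3.86 and 4.48), and smaller changes of elastin than that cannot be judged from it. 

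Lox, the crosslinking enzyme, lies on chromosome 18 from 52516060 to 52529867 and was bright. It read 12.24 and 12.16 in vector cells, 12.00 and 12.03 in the Runx1 line, 11.96 and 11.97 in the Runx2 line and 12.02 and 11.96 in the Runx3 line. All 6 line arrays lay below both vector arrays, by a small step. The changes of −0.18, −0.24 and −0.21 (SE 0.10) did not pass in limma (adjusted p = 0.794, 0.461 and 0.387). Its second bright probe set changed by −0.20, −0.22 and −0.21 and did not pass, while a dim one, at 3.62 in vector cells, fell in the Runx3 line by 0.48 (limma adjusted p = 0.0133). With the mean of the Lox probe sets or a trended, robust prior, Lox was called lower in the Runx3 line.

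The members were chosen with earlier results of these data known, so their counts beside the shares of all genes are descriptions and no test. Set against all genes, 3 of the 9 members were called in the Runx1 line, 4 in the Runx2 line and 4 in the Runx3 line. The share of all 18193 genes called by the same rule was 1.42%, 2.13% and 7.83%, and of the 8048 genes with a mean above 5 it was 2.78%, 4.24% and 15.5%. By probe sets the counts were 4, 5 and 7 of 17, against 0.928%, 1.37% and 5.1% of all probe sets. In direction, 2 members rose in each line (Emilin1 and Mfap5), where 0.813%, 0.775% and 3.26% of all genes rose. Fbln5 fell in each line and Emilin2 in the Runx2 and Runx3 lines, where 0.61%, 1.35% and 4.57% of all genes fell. The median member change was −0.18, −0.08 and −0.08 log2 units, beside −0.01, −0.01 and 0.00 for all genes, so rises and falls lay on both sides of a centre near 0. The same genes were called with the vector arrays with 4-OHT, or the mean of both vector groups, as the control.

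**Figure D2:**
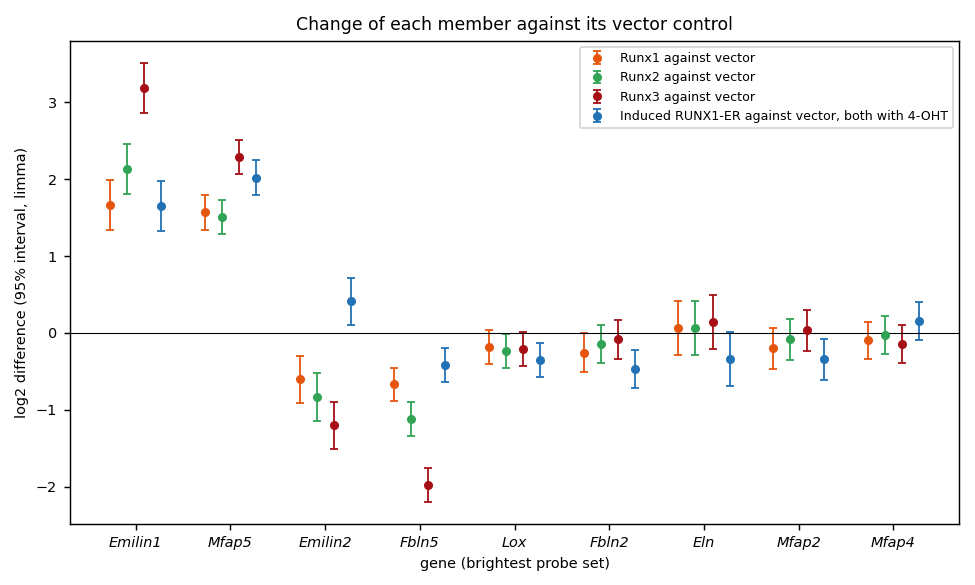
Log2 difference from vector cells (y axis) for the brightest probe set of each gene (x axis) in 3 constitutive lines and induced RUNX1-ER cells. The control was vector cells without 4-OHT for the lines and with 4-OHT for induced RUNX1-ER cells. Points give the estimate and bars the 95% interval of the limma fit. Emilin1 and Mfap5 lie at 1.51 or more in all 4 comparisons, Fbln5 lies at −0.41 to −1.98, and Emilin2 lies below 0 in the lines and at 0.41 in induced RUNX1-ER cells.

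Tested line against line, the Runx3 line stood apart from the others. Emilin1 was higher there than in the Runx1 line by 1.53 (SE 0.15, limma adjusted p = 5.15e-05) and than in the Runx2 line by 1.05 (adjusted p = 0.00246). Mfap5 was higher by 0.72 and 0.78 (limma adjusted p = 0.00126 and 0.00151), and here its dimmer probe set moved with the brighter, by 0.58 and 0.80 (adjusted p = 0.00765 and 0.00160). Fbln5 was lower in the Runx3 line by log2 differences of −1.30 and −0.85 (limma adjusted p = 7.35e-06 and 0.000642). Emilin2 was lower than in the Runx1 line by −0.60 (adjusted p = 0.0328) and differed from the Runx2 line by −0.37, which did not pass (adjusted p = 0.308). The first of these was lost on leaving out any array of the Runx1 or Runx3 line (limma adjusted p from 0.0529 to 0.235, the lowest without Runx3 replicate 2 and the highest without Runx3 replicate 1) or with only those groups fitted (0.0850). The Fbln5 and Mfap5 calls against the Runx2 line were lost when only those 2 groups were fitted (limma adjusted p = 0.0672 and 0.126). In all, 4 of 9 members differed between Runx3 and Runx1, where 5.25% of all genes did, and 3 between Runx3 and Runx2, where 2.64% did.

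The Runx2 and Runx1 lines were not told apart in these genes. In limma 0 of 9 members passed, against 1.18% of all genes. An unadjusted p under 0.05 was found for 4158 of 45037 probe sets and for 2 of the 9 members. These were Emilin1, at 0.47 (95% interval 0.15 to 0.80, adjusted p = 0.272), and Fbln5, at −0.45 (95% interval −0.67 to −0.23, adjusted p = 0.0695). For both genes the arrays of the lines did not overlap, but this also held for Emilin2, Mfap2, Mfap4 and Lox. Among these the changes were as small as −0.05 (Lox), so the lack of overlap does not set Emilin1 and Fbln5 apart. The Fbln5 difference passed with a trended, robust prior (limma adjusted p = 0.00275). The order of Emilin1 levels from vector to Runx1, Runx2 and Runx3 is therefore supported by a passed test at the first and last step alone. For Mfap5 the interval of Runx2 minus Runx1 was −0.29 to 0.17.

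**Figure D3:**
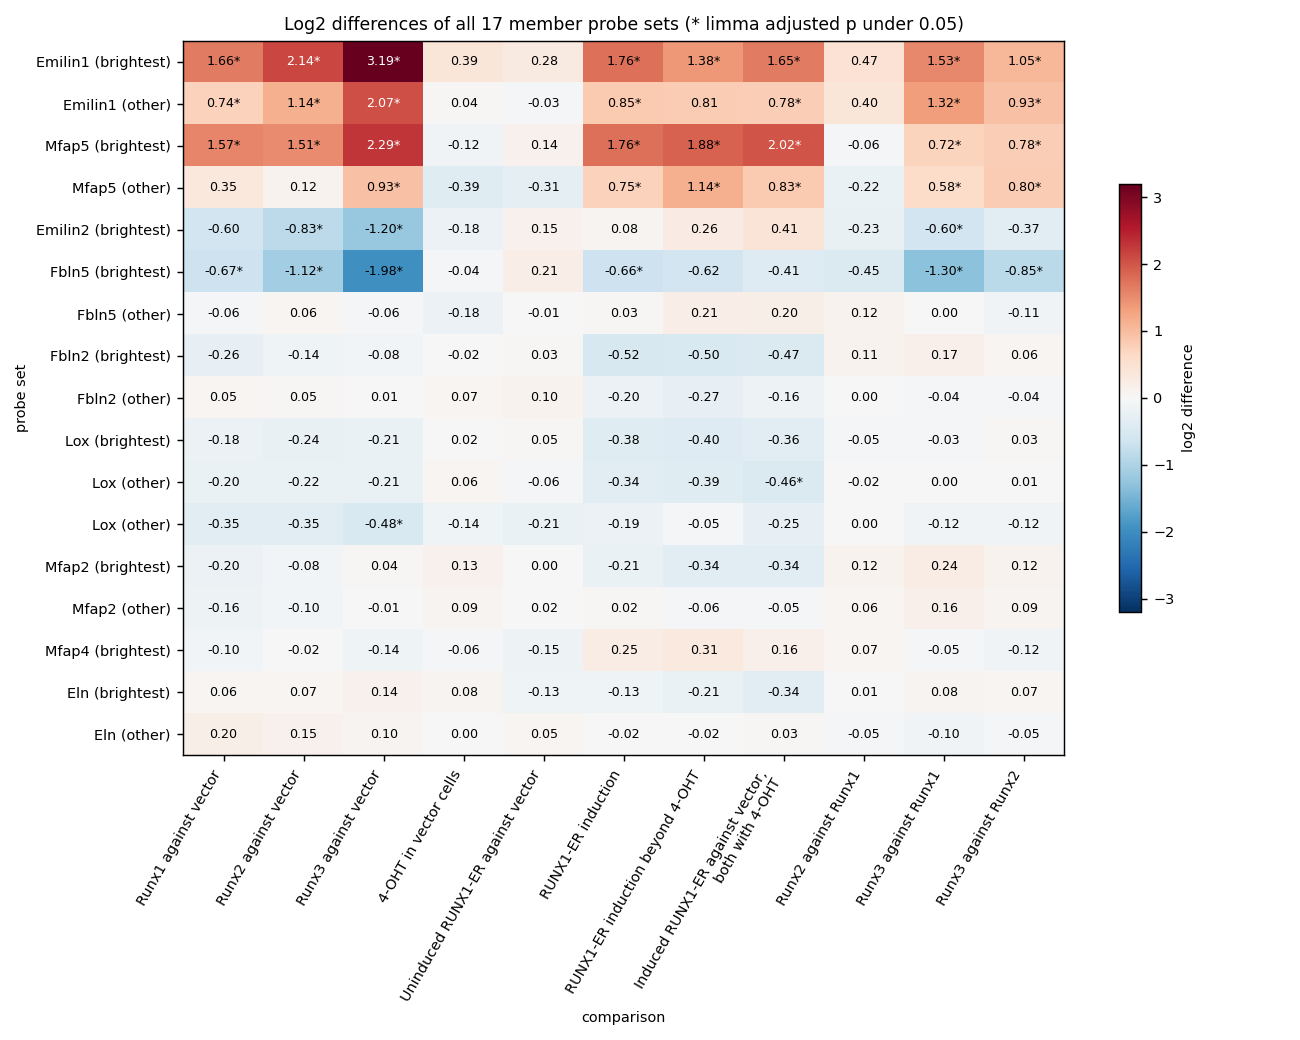
Log2 differences of all 17 probe sets (rows, grouped by gene with the brightest first) in the 11 tested comparisons (columns), with colour and number giving the difference and an asterisk marking a limma adjusted p under 0.05. Both Emilin1 probe sets carry asterisks in each Runx line, and the columns for 4-OHT in vector cells, uninduced RUNX1-ER and Runx2 against Runx1 carry none.

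The inducible line compares uninduced RUNX1-ER cells with RUNX1-ER cells induced for 24 h, as unpaired groups. In vector cells 4-OHT moved the 9 genes by −0.18 to 0.39, and limma called 0 of them and 0% of all genes (0 of 45037 probe sets, and 0 with a trended, robust prior). An unadjusted p under 0.05 was found for 2 of the 17 member probe sets and for 2773 probe sets in all. One was the dimmer Mfap5 probe set, at −0.39 (95% interval −0.63 to −0.16). The other was the brightest of Emilin1, which read 6.79 and 6.26 with 4-OHT, the widest spread of its groups (95% interval of the change 0.06 to 0.71). In uninduced RUNX1-ER cells 0 of 9 members differed from vector cells by the limma test, where 0.0165% of all genes did. By their brightest probe sets 0 had an unadjusted p under 0.05 or passed with a trended, robust prior. Of all 45037 probe sets, 2985 and 102 did so. The dimmer Mfap5 probe set was at −0.31, without overlap of the arrays (95% interval −0.55 to −0.08, limma adjusted p = 0.642). Emilin1 read 6.42 and 6.41 there, and Mfap5 6.25 and 6.24. 

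After induction both genes rose. Emilin1 read 8.32 and 8.03, a rise of 1.76 over uninduced cells (SE 0.15, limma adjusted p = 5.63e-05), and Mfap5 read 8.02 and 7.99, also a rise of 1.76 (SE 0.11, adjusted p = 2.05e-06). Their other probe sets rose as well, by 0.85 and 0.75 (limma adjusted p = 0.0198 and 0.00342). Beyond the change that 4-OHT made in vector cells, Mfap5 rose by 1.88 (SE 0.15, limma adjusted p = 6.04e-05; 1.14 and adjusted p = 0.00504 on its other probe set, of which 0.39 is the lower level of that probe set in vector cells with 4-OHT) and Emilin1 by 1.38 (SE 0.21, adjusted p = 0.0126). The Emilin1 call was lost without vector replicate 1 (limma adjusted p = 0.0591), vector replicate 2 (0.0755), uninduced RUNX1-ER replicate 2 (0.0561) or induced RUNX1-ER replicate 1 (0.0811), and when only the 4 groups compared were fitted (0.0708). Its other probe set changed by 0.81 in this test (adjusted p = 0.240).

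Fbln5 fell on induction, from 9.62 and 9.72 to 9.05 and 8.96, by 0.66 log2 units (SE 0.10, limma adjusted p = 0.00478). This call was lost without uninduced replicate 2 (adjusted p = 0.0683) or induced replicate 2 (0.0850), with the mean of its probe sets (0.0554) and with only these 2 groups fitted (0.107). Beyond 4-OHT the change was −0.62 and did not pass (limma adjusted p = 0.123). Fbln2 had a mean of 8.89 ± 0.16 (SD, n = 2) in induced cells against 9.40 ± 0.15 (n = 2) in uninduced cells, without overlap of the arrays. Its change of −0.52 lay just outside the threshold (limma adjusted p = 0.0607). It passed when p was adjusted over the brightest probe set of each gene (0.0385), and the Lox change of −0.38 (adjusted p = 0.135) passed among probe sets with a mean above 5 (0.0358). In total 3 of 9 members were called on induction, where 1.41% of all genes were, and 2 beyond 4-OHT, where 0.478% were.

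Set against vector cells with the same ligand, induced RUNX1-ER cells gave 2 of 9 members called, against 2.92% of all genes. Mfap5 was higher by 2.02 (SE 0.11, limma adjusted p = 3.63e-07) and Emilin1 by 1.65 (adjusted p = 5.89e-05). Fbln2 at −0.47, Fbln5 at −0.41 and Lox at −0.36 did not pass (limma adjusted p = 0.0608, 0.0603 and 0.113), although the second bright Lox probe set did, at −0.46 (adjusted p = 0.0285). Emilin2 read 7.40 and 7.23 in induced cells, 7.02 and 7.45 in uninduced cells and 6.92 and 6.89 in vector cells with 4-OHT. Its difference from the last of these was 0.41 (limma adjusted p = 0.208), where the Runx1 line had changed by −0.60. That difference between the effects, a comparison chosen after the Emilin2 values were seen, was 1.01 log2 units (SE 0.20, limma adjusted p = 0.0386), with 0.666% of probe sets called by the same test. For Emilin1 the same difference was −0.01 (SE 0.21, limma adjusted p = 0.994), and for Mfap5 0.45 (adjusted p = 0.277). Induction itself changed Emilin2 by 0.08 over uninduced cells (limma adjusted p = 0.936) and by 0.26 beyond 4-OHT (adjusted p = 0.767). Neither change passed.

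The single array of the line with constitutive human RUNX1 has no replicate check. Emilin1 read 8.62 and Mfap5 8.95, higher than the vector means by 2.48 and 2.84 log2 units and than the Runx1 line means by 0.82 and 1.27. The Mfap5 value was the highest of all 15 arrays. Fbln5, at 8.63, and Emilin2, at 6.59, were lower than the vector means by differences of −0.83 and −0.50. In all 2 of 9 members lay past 2-fold of the vector mean, where 1.1% of all genes did. The brightest Eln probe set had its highest value here, at 5.50, whereas the other, at 3.83, had its lowest group value here.

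Over the 8 group means (1 of them a single array), the members that moved did not all follow 1 order. Emilin1 and Mfap5 had a Pearson correlation of 0.94, Emilin1 and Fbln5 one of −0.91, and Emilin2 and Fbln5 one of 0.90. Emilin2 was less close to Emilin1 (−0.72) and Mfap5 (−0.55), since its highest group mean was that of induced RUNX1-ER cells, where both of those were also high. These groups share the vector backbone, the cell line and the normalization, and the values are descriptions. Probe sets of 1 gene correlated at 0.97 for Emilin1, 0.92 for Mfap5 and 0.92 for the bright pair of Lox, but at −0.18 for Fbln5 and −0.42 for Eln, whose other probe sets were dim. Among 8040 other genes with a mean above 5, those most like Emilin1 by Pearson correlation over the 8 means were Itgb5 (0.985), an integrin chain, Tmem268 (0.976), Klhl22 (0.975), Il18 (0.972), a cytokine gene, and Ncam1 (0.972), a cell adhesion molecule. For Mfap5 they were Rnf19b (0.975), Mgst2 (0.975), Stambpl1 (0.973), Angptl4 (0.973), a secreted inhibitor of lipoprotein lipase, and Sdc1 (0.971), a cell surface proteoglycan.

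Other genes of the pathway were taken from 7 lists written from general knowledge, but with earlier results of these data known. Beside the counts of these lists, 1.42%, 2.13% and 7.83% of all genes were called in the Runx1, Runx2 and Runx3 lines. Of genes with a mean above 5 it was 2.78%, 4.24% and 15.5%. In the Runx3 line a count of 1 of 9, 10 or 11 genes lies near these shares. Of 10 measured structural proteins of microfibrils and elastic fibres beyond the members, 0 rose in any line, and Efemp1, which encodes fibulin 3, was the only one called, in the Runx2 and Runx3 lines. It read 12.13 in vector cells, 11.51 in the Runx2 line and 10.91 in the Runx3 line, falls of 0.61 (SE 0.09, limma adjusted p = 0.00386) and 1.22 (adjusted p = 2.95e-06). Efemp1 also fell on RUNX1-ER induction, by 0.49 (limma adjusted p = 0.0243), and its change beyond 4-OHT, −0.44, did not pass (adjusted p = 0.315). Fbln1 and Fbln7, other fibulins of the list, were not called in these comparisons. 

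In the lysyl oxidase family and its copper supply (4 measured), Loxl3, a relative of Lox, rose by 1.15 with Runx1 (SE 0.13, limma adjusted p = 0.000518), by 0.64 with Runx2 and by 0.53 with Runx3 (adjusted p = 0.0299 and 0.0365). Loxl3 also rose on RUNX1-ER induction, by 0.71 (limma adjusted p = 0.0217). Its changes beyond 4-OHT and against vector cells with 4-OHT, 0.405 and 0.39, did not pass (limma adjusted p = 0.586 and 0.195). Loxl4 rose by 0.61 with Runx3 (adjusted p = 0.0240), whereas its other probe set, at 0.46, did not pass. Atp7a, a copper pump that loads lysyl oxidases, fell in the Runx2 and Runx3 lines by 0.80 and 0.78 (limma adjusted p = 0.0330 and 0.0143). Its other probe set did not pass. Uninduced RUNX1-ER cells differed from vector cells in Atp7a by −0.435, which did not pass (limma adjusted p = 0.687). In the Runx3 line, then, Loxl3 and Loxl4 were higher, while the brightest Lox probe set was not called and a dim one was lower. Loxl1, the other measured gene of this list, was not called in any mouse Runx line by its brightest probe set.

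Of 8 latent TGF-β binding proteins and TGF-β ligands, 0 were called in the Runx1 and Runx2 lines. In the Runx3 line Tgfb1 rose by 1.14 (SE 0.13, limma adjusted p = 0.000118). Ltbp3, which holds latent TGF-β, fell there by 0.59 (adjusted p = 0.00112). Both were also called in induced RUNX1-ER cells against vector cells with 4-OHT, at 0.66 and −0.47 (limma adjusted p = 0.0210 and 0.0156). From uninduced to induced cells they changed by 0.295 and −0.24 and did not pass (limma adjusted p = 0.535 and 0.410). In vector cells 4-OHT changed Tgfb1 by −0.605, which did not pass (limma adjusted p = 0.620). Of 11 processing proteases and ADAMTS-like proteins, only Adamts6 was called in the lines, higher in the Runx3 line by 1.08 (limma adjusted p = 0.00889). Its dimmer probe set was also called in the Runx2 line, at 0.65 (adjusted p = 0.0208), and its brighter one in induced RUNX1-ER against vector cells with 4-OHT, at 0.92 (adjusted p = 0.049957). Among 8 matrix partners 0 rose, and 2, 2 and 3 fell in the Runx1, Runx2 and Runx3 lines. Of all genes, 0.61%, 1.35% and 4.57% fell in these lines. Dcn, a small proteoglycan that binds collagen and microfibrils, fell in each of them by 0.84, 0.92 and 1.02 (SE 0.15, limma adjusted p = 0.0178, 0.00751 and 0.00111). Dcn also read lower in cells without an active transgene, where the vector mean of 5.30 compares with 4.88 after 4-OHT alone and 4.59 for uninduced RUNX1-ER. These differences of −0.42 and −0.71 did not pass (limma adjusted p = 0.775 and 0.239). Vcan, a large proteoglycan that binds fibrillin, fell in the Runx1 and Runx3 lines by 0.93 and 0.87 (limma adjusted p = 0.00165 and 0.000716). Col8a1, a short-chain collagen, fell in the Runx2 and Runx3 lines, with log2 differences of −1.01 and −1.60 (limma adjusted p = 0.00136 and 6.80e-06). Further probe sets of Tgfb1 and Dcn, both dim, did not pass, while 1 or more other probe sets of Ltbp3, Adamts6, Vcan and Col8a1 passed in the Runx3 line in the same direction. In that line the list medians lay between −0.27 for the matrix partners and 0.15 for the lysyl oxidase list, beside 0.00 for all genes.

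On the side of turnover and receptors, Mmp2, a gelatinase that can cut elastin, rose by 0.79, 0.64 and 0.59 in the Runx1, Runx2 and Runx3 lines (SE 0.09, limma adjusted p = 0.000500, 0.00226 and 0.00122). Neu1, the sialidase of the elastin receptor complex, and Ctsl, a lysosomal protease, fell in the Runx3 line by 0.72 and 0.48 (limma adjusted p = 0.00306 and 0.00449), and other probe sets of Neu1, all dim, did not pass. The remaining genes of these 10 were not called. Of 9 integrin chains, only Itgb5 was called. The integrin β5 chain pairs with αv in receptors for matrix proteins with an RGD site, and Itgb5 rose by 0.71, 0.84 and 1.41 (SE 0.12, limma adjusted p = 0.0101, 0.00213 and 6.47e-06), with all 4 of its probe sets called in each line. It also rose on RUNX1-ER induction by 0.91 and beyond 4-OHT by 1.03 (limma adjusted p = 0.00171 and 0.0179). Mmp2, called in all 3 lines, changed by 0.31 on induction and 0.30 beyond 4-OHT and did not pass (limma adjusted p = 0.196 and 0.553), but was higher than in vector cells with the same ligand by 0.57 (adjusted p = 0.00462). Dcn, Vcan and Col8a1 did not pass on induction (−0.29, 0.26 and −0.60, limma adjusted p = 0.627, 0.565 and 0.0652) or beyond 4-OHT.

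**Figure D4:**
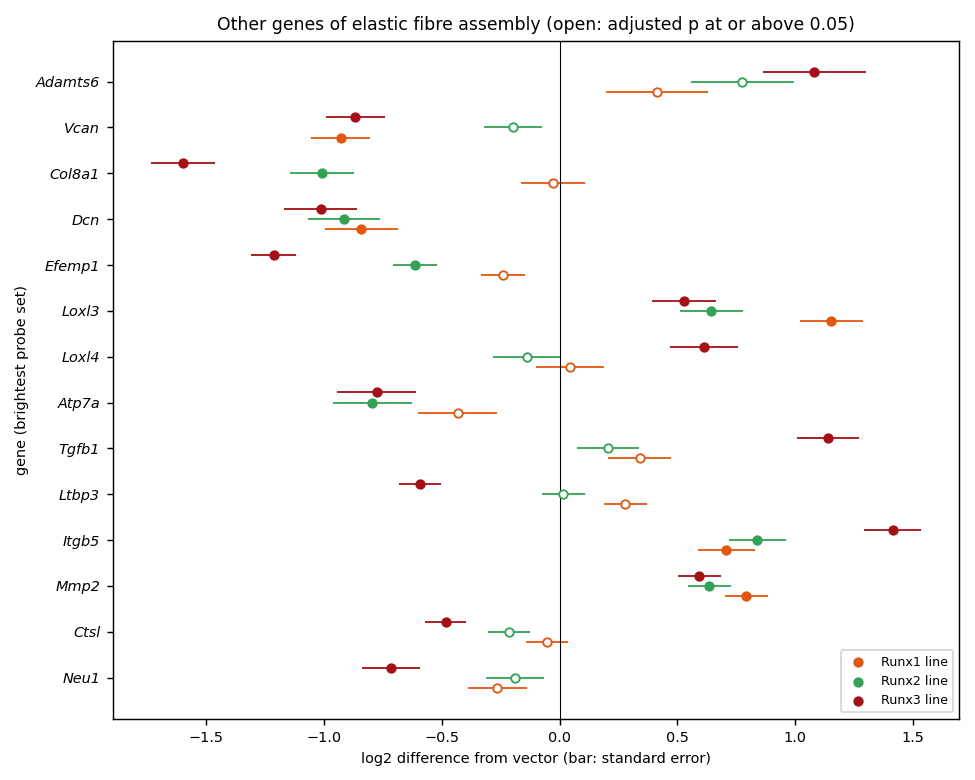
Log2 difference from vector cells (x axis) in the Runx1, Runx2 and Runx3 lines for the pathway genes given with values in the text. The y axis lists the genes by their brightest probe set. Filled points have a limma adjusted p under 0.05, open points are the others, and bars give the standard error. Itgb5, Mmp2 and Loxl3 are filled to the right of 0 in all 3 lines, and Dcn is filled to the left of 0 in all 3.

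Markers of the labelled cell type were high. All 8 measured fibroblast markers ran between 7.20 and 13.35 on every array, and their mean was 11.15 to 11.25 in vector cells and 10.98 to 11.03 in the Runx3 line, with Pdgfra lower and Pdgfrb higher in each of the Runx1, Runx2 and Runx3 lines. In the Runx3 line 5 of the 8 were called, with Thy1 and Col3a1 also lower and Col1a1 higher. Of all genes 7.83% were called in that line, and of genes with a mean above 5 it was 15.5%. The 5 smooth muscle markers had a mean of 5.72 to 5.76 in vector cells, 5.89 to 6.17 in the Runx1 line, 5.81 to 5.83 in the Runx2 line, 6.04 to 6.12 in the Runx3 line and 5.84 to 5.87 in induced RUNX1-ER cells. Acta2, of smooth muscle and myofibroblasts, was called higher in the Runx1 and Runx3 lines, and Tagln in the Runx3 line, while Myh11, a defining gene, stayed between 2.93 and 3.32, below every array median. The 4 epithelial markers had a mean of 3.83 to 3.86 in vector cells and of 4.89 to 4.90 in the Runx3 line, where Krt8 and Cdh1 were called higher; Krt8 was also called in the Runx2 line. Endothelial markers (5 of 5) lay between 2.85 and 3.85 on all arrays. The 4 macrophage and leukocyte markers had a mean of 3.81 to 3.85 in vector cells and 3.40 to 3.58 in the Runx3 line. In that line 0 were called. Ptprc lay at 2.99 to 3.62 and Adgre1 at 3.02 to 3.45, while Csf1r ran from 3.74 to 5.50 and Cd68 from 3.02 to 4.33. The 3 adipocyte markers measured lay between 2.86 and 3.89. The part of these markers in the changes of the elastic fibre genes was not tested, and in such bulk samples fewer cells of a type and less RNA per cell cannot be told apart.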

How the data were processed

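The deposited table holds 15 arrays as log2 values that the authors made, per the labels' protocols, with GCOS and the Robust Multichip Average of the Bioconductor module affy in the FunAlyse pipeline. The sources used here give no versions, and the range of the values showed the scale. RMA gives all arrays 1 distribution, which hides any shift in total RNA. Columns were matched to samples by accession and to 8 groups by title. Of 45101 probe sets, 34958 had 1 gene symbol in the platform annotation, 932 several and 9160 none, and 64 controls of the manufacturer were left out of the tests. All 17 member probe sets matched RefSeq by Entrez identifier.

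Groups were compared by lmFit and eBayes in limma (3.58.1, R 4.3.3), two-sided, with 1 coefficient per group over all 15 arrays (7 residual and 6.21 prior degrees of freedom) and Benjamini-Hochberg adjustment over 45037 probe sets within each of 11 comparisons. The human RUNX1 array was not tested. A group left with 1 array was assumed to vary like the others. Intervals are 95% intervals of the fit, whose precision is limited by having 1 or 2 arrays a group. The steps were tested on simulated data.

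The members and lists were chosen with earlier results of these data known. The text names all members, up to 3 genes per pathway list with the largest change among those called in a mouse line, and the 5 genes most like the 2 members with the widest range. Same-numbered replicates did not deviate together (correlations from −0.176 to 0.305, above 0.1 in 4 of 21 pairs of groups), so no pairing was used. Alternatives were the prior, a filter on dim probe sets, 1 probe set or the mean per gene, array centring, the groups fitted, the control group, a replicate block and each replicate left out.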

Additional observations from a re-analysis of the deposited data

Results flagged for a closer look

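The response to 4-OHT differed between RUNX1-ER cells and vector cells, by an interaction term, for Mfap5 (1.88 log2 units, limma adjusted p = 6.04e-05) and Emilin1 (1.38, limma adjusted p = 0.0126). The Emilin2 difference of induced RUNX1-ER cells from vector cells with 4-OHT exceeded the change of the Runx1 line by 1.01 (limma adjusted p = 0.0386). This comparison was chosen after the values were seen and was fitted in the main setting alone. Both induced arrays lay above and both Runx1 arrays below their vector arrays. Emilin2 changed by 0.08 from uninduced to induced cells, which did not pass (limma adjusted p = 0.936). Groups of 1 or 2 arrays are too small for a test of single outlying arrays.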

How the results depend on the processing

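For the count of member genes called, leaving out 1 array gave 2 to 3 for Runx1 against vector, 3 to 4 for Runx2, 4 to 4 for Runx3, 2 to 3 for RUNX1-ER induction, 1 to 2 beyond 4-OHT (1 without vector replicate 1 or 2, uninduced replicate 2 or induced replicate 1, which lost Emilin1), 2 to 2 for induced RUNX1-ER against vector, 3 to 3 for Runx3 against Runx1 and against Runx2, and 0 to 0 for the others. With a trended, robust prior the count moved to 5 for RUNX1-ER induction, 4 beyond 4-OHT, 5 for induced RUNX1-ER against vector and 1 for Runx2 against Runx1. Over all probe sets this prior raised the calls from 428 to 846, 148 to 377, 878 to 1537 and 347 to 624 in these comparisons. In the Runx1 and Runx3 lines it raised them from 418 to 680 and from 2297 to 3046. With probe sets above a mean of 5 the count of members moved to 5 for induction, 5 for induced RUNX1-ER against vector and 1 for Runx2 against Runx1. With the brightest probe set of each gene it moved to 4 for induced RUNX1-ER against vector and 1 for Runx2 against Runx1. The share of all probe sets called in these settings is not given here. Fits of the compared groups alone gave 1 beyond 4-OHT and 1 for Runx3 against Runx2. Smaller gains were Runx1 to 4 with either the trended prior or the filter (adding Emilin2) and Runx3 to 5 with the trended prior (adding Lox). The count beyond 4-OHT went to 3 with the filter (adding Fbln5). RUNX1-ER induction gained Fbln2 with the brightest probe set of each gene. The calls added in these and the preceding settings were of Emilin2, Fbln2, Fbln5 or Lox, all lower. The fit of 2 groups for Runx3 against Runx2 removed Fbln5 and Mfap5. Fits of the compared groups alone also removed Fbln5 for Runx1 against vector and for RUNX1-ER induction. They removed Emilin2 for Runx2 against vector and for Runx3 against Runx1. The mean of the probe sets of each gene also removed Fbln5 for induction. The replicate block, which the numbers do not justify, left the count of member genes at 3, 4 and 4 for the 3 lines and changed no other count of members. Of 43 single gene values with an unadjusted p under 0.05, 0 reversed in 328 recomputations under other settings or in 192 with a replicate left out; 8 and 15 lost and 23 and 0 gained a call. Mfap4 was not tested with the filter on dim probe sets.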
